A study of Mus musculus with 9 samples.

Results

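The D and E cyclins, their G1 kinases and the phosphatase gene *Cdc25a* were examined in a murine T-ALL line (T cell acute lymphoblastic leukemia) whose human MYC transgene can be turned down with doxycycline. The set was named by gene and holds 9 members of 53380 genes counted: the D cyclins *Ccnd1*, *Ccnd2* and *Ccnd3*, the E cyclins *Ccne1* and *Ccne2*, the kinases *Cdk2*, *Cdk4* and *Cdk6*, and *Cdc25a*. All 9 were found in the count tables, and all 9 passed the filter on low counts.

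The cells came from tumors of EμSRα-tTA/tet-O-MYC mice on the FVB/N background. There the EμSRα element drives the tetracycline transactivator in lymphoid cells, and the transactivator drives the human MYC transgene unless doxycycline is present. MYC on cells received a mock treatment, MYC intermediate cells received 20 pg/mL doxycycline and MYC off cells received 500 pg/mL, each for 48 h, with 3 RNA-seq libraries per group. All groups carry the same transgenes and were grown in the same way. The labels do not say whether the 3 replicates were separate cultures or whether the line is 1 clone, so p-values measure the spread between these libraries, which may be technical. Libraries held 18705516 to 39678799 counts assigned to genes. All levels and changes below are relative to the other RNA of a library. They were not scaled to cell number, so RNA per cell is not given. Transgene RNA averaged 1260 ± 75.4 CPM (counts of a gene scaled by the library total, mean ± SD, n = 3 here and below) with MYC on, 408 ± 23.0 CPM at the intermediate dose and 3.78 ± 0.454 CPM with MYC off, which were 32.4% and 0.300% of the MYC on level. Of 12 T cell markers, 12 had counts, and their summed level was 3242 to 3406 CPM with MYC on, 5680 to 5895 CPM at the intermediate dose and 7579 to 7693 CPM with MYC off. Markers of other lineages were low in sum, with B cell markers at 77.2 to 94.7 CPM with MYC on and 32.0 to 33.7 CPM with MYC off while *Cd79b*, *Ms4a1* and *Pax5* stood at 0. Myeloid markers summed to 26.9 to 31.3 CPM with MYC on and 41.2 to 44.1 CPM with MYC off, with *Lyz2*, *Adgre1* and *Cd14* at 0. Stromal and endothelial markers summed to 89.7 to 94.5 CPM with MYC on and 209 to 228 CPM with MYC off, with *Col3a1* and *Cdh5* at 0. At 0 were 4 of 6 B cell, 3 of 7 myeloid and 2 of 8 stromal and endothelial markers, and the others carried the sums. NK markers summed to at most 0.475 CPM, and erythroid and platelet markers to at most 0.0681 CPM. Marker sums that moved with MYC moved in the same libraries as the genes described here, and their part in these results was not tested.

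D cyclins are made in response to growth signals and bind CDK4 or CDK6. The resulting kinases phosphorylate RB and its relatives, which frees E2F transcription factors, and E2F factors switch on the E cyclins. Cyclin E then binds CDK2, which CDC25A activates by removing inhibitory phosphates, and the cell enters S phase. In thymocytes and T-ALL, cyclin D3 and CDK6 are the best known pair, and MYC binds DNA at E-boxes such as CACGTG.

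Promoters were taken from RefSeq (GRCm38.p6), each running from 250 bases before the transcript start to 50 after it. The table held promoters for 6 of the 9 genes (*Ccnd3*, *Ccne1*, *Cdk2*, *Cdk4*, *Cdk6* and *Cdc25a*) and not for *Ccnd1*, *Ccnd2* and *Ccne2*. Those of the genes whose RNA differed between MYC on and off are shown because they can be set beside the changes given further on. Capitals mark CACGTG, which is its own reverse complement, or an E2F-type match to TTTCCCGC, TTTGGCGC, TTTCGCGC or TTTGCCGC on either strand.
Cdk4, chr10:127063285-127063584, plus strand: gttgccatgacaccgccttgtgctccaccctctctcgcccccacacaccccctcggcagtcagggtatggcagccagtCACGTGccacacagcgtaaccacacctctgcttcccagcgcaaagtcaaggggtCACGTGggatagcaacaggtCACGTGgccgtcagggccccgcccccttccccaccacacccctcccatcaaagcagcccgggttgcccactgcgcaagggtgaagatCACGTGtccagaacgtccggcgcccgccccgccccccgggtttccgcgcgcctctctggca
Cdk6, chr5:3343643-3343942, plus strand: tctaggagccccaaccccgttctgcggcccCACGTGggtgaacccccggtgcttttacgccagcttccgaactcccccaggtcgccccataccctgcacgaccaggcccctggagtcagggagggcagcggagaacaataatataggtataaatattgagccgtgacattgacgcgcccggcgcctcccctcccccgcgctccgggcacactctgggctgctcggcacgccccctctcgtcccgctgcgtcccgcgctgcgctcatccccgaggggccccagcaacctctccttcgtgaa
Cdk2, chr10:128705002-128705301, minus strand: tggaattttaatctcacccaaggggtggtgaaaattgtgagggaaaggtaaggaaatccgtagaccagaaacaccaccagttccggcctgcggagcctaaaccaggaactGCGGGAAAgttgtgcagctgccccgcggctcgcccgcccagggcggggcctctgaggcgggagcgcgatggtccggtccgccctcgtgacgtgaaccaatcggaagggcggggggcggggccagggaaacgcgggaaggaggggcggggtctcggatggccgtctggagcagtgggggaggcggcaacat
Ccnd3, upstream promoter, chr17:47504801-47505100, plus strand: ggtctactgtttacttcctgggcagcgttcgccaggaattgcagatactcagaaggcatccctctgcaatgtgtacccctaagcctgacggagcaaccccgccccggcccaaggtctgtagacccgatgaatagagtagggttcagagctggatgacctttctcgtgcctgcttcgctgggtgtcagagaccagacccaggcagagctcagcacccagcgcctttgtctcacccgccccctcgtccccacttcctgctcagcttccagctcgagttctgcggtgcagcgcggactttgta
Ccnd3, downstream promoter, chr17:47593217-47593516, plus strand: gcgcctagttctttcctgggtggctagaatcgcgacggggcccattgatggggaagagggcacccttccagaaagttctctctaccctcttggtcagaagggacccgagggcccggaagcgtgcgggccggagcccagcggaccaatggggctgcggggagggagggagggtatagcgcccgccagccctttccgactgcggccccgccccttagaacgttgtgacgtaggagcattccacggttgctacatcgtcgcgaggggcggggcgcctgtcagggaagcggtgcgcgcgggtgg

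*Cdk4* held 4 copies of CACGTG, whose first bases lay at -172, -118, -98 and -11 from the transcript start. Of 32851 mouse promoters of this length, 2349 (7.15%) held at least 1 copy and 8 (0.0244%) held 4 or more. *Cdk6* held 1 copy, at -220. The E2F letters occurred in 2.26% of promoters. They were found in *Cdk2*, as GCGGGAAA at -140, and in *Cdc25a*, as TTTGGCGC at -67, while neither motif was present in the *Ccne1* promoter or in either *Ccnd3* promoter. Both genes with CACGTG had more RNA with MYC on than off, as had 27.4% of all genes tested (test given below). *Ccnd2*, which also had more, had no promoter to search, and a link between motif and RNA was not tested. These matches describe letters only, and binding was not measured.

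To ask how the G1 machinery differed between MYC levels, each gene was compared between groups. Between MYC on and MYC off, 6 of the 9 genes passed the test: *Ccnd2*, *Cdk6* and *Cdk4* were higher with MYC on, and *Ccnd3*, *Cdk2* and *Ccne2* were lower. Of all 14098 genes tested, 54.9% passed, 27.4% as higher and 27.5% as lower with MYC on (edgeR quasi-likelihood F test, Benjamini-Hochberg adjusted p under 0.01), so the share among the 9 is near the background. For the same 6 genes the libraries of the groups did not overlap, against 70.0% of all genes. The median absolute log2 fold change was 0.56 over the 9 genes and 0.46 over all genes. Each family held members that moved in opposite directions or did not pass: *Ccnd2* against *Ccnd3* among D cyclins, *Cdk6* and *Cdk4* against *Cdk2* among kinases.

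**Figure D1:**
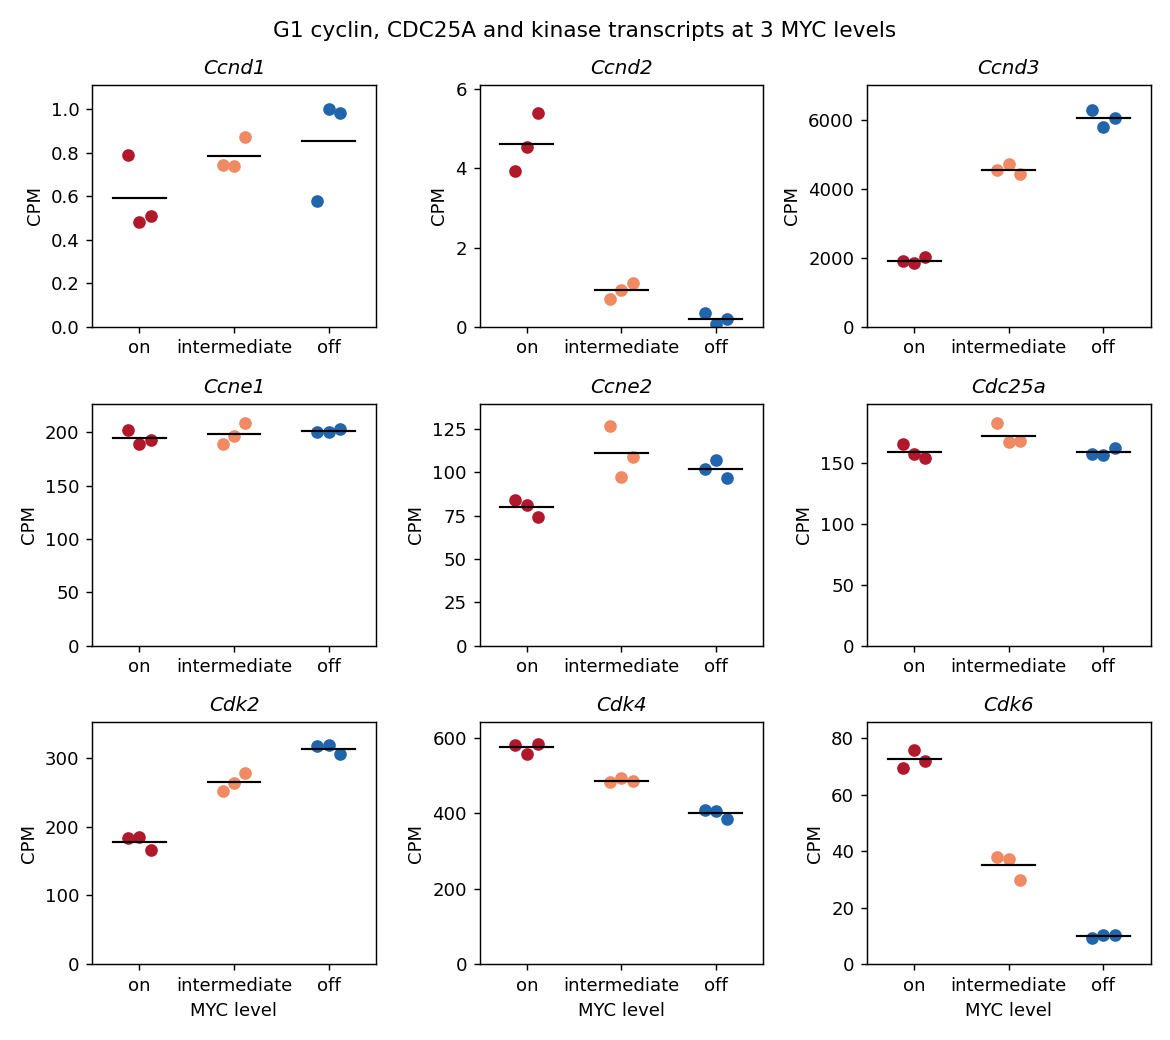
CPM (vertical axis, starting at 0, a separate scale for each gene) of the 9 genes in each library of the 3 MYC levels. Points are the 3 libraries of a group and the bar is their mean. *Ccnd3* and *Cdk2* lie higher toward MYC off, *Cdk4*, *Cdk6* and *Ccnd2* lie lower, and the groups overlap for *Ccne1* and *Ccnd1*.

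*Ccnd3* (ENSMUSG00000034165.16, mm10 chr17:47505051-47599691, plus strand) encodes cyclin D3, the D cyclin that drives the proliferation of immature T cells. It had 1897, 1848 and 2011 CPM in the MYC on libraries, 4539, 4706 and 4428 CPM at the intermediate dose and 6269, 5803 and 6050 CPM with MYC off. The 3 groups did not overlap, and each group with a lower MYC level had more *Ccnd3* RNA in all its libraries than the group above it in MYC. *Ccnd3* was 3.08-fold higher with MYC off than on (log2 fold change, on over off, -1.62 ± 0.06 SE, adjusted p = 3.09e-12, edgeR), and the absolute change ranked above those of 91.3% of all tested genes. Most of the difference was present at the intermediate dose (2.39-fold; -1.26 ± 0.06, adjusted p = 5.75e-10, edgeR), and the further step to MYC off was 1.29-fold (-0.36 ± 0.06, adjusted p = 1.87e-04, edgeR). On the TPM scale, which divides counts by gene length and so allows levels of different genes to be compared, *Ccnd3* ranked between 139 and 157 among all genes with MYC on, between 33 and 39 at the intermediate dose and between 22 and 24 with MYC off.

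The 3' end of *Ccnd3* shares 361 exon bases with *Bysl* (mm10 chr17:47599331-47611492, minus strand), which encodes bystin, a ribosome assembly factor. The library kit does not mark strand, so reads of the genes cannot be told apart in these bases. *Bysl* moved the same way, at 562, 1154 and 1404 CPM from MYC on to off (log2 fold change, on over off, -1.29 ± 0.06, adjusted p = 2.10e-11, edgeR), and its counts were 22.6% to 30.7% of those of *Ccnd3* in a library. A processed copy, *Ccnd3-ps*, had 1568 counts in all 9 libraries against 1128746 for *Ccnd3*.

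*Ccnd2* (ENSMUSG00000000184.12, mm10 chr6:127125162-127152193, minus strand) encodes cyclin D2, which many lymphocytes use when they leave quiescence. It was scarce throughout, with 80, 85 and 158 counts in the MYC on libraries, 23, 25 and 32 at the intermediate dose and 14, 2 and 6 with MYC off. In CPM these were 3.94, 4.54 and 5.38, then 0.714, 0.926 and 1.11, and then 0.353, 0.0743 and 0.190. Groups did not overlap, and *Ccnd2* ran opposite to *Ccnd3*. The pooled ratio of MYC on to off was 21.1 (exact 95% interval 13.7 to 34.1, counting error only, from 323 against 22 counts), and the log2 fold change was 4.39 ± 0.33 (adjusted p = 1.01e-08, edgeR). It ranked above 99.7% of tested genes by absolute change. Both steps passed, on to intermediate with 2.33 ± 0.27 (adjusted p = 4.09e-06, edgeR) and intermediate to off with 2.06 ± 0.39 (adjusted p = 6.65e-04, edgeR). Without MYC off replicate 1, which held 14 of the 22 counts, the log2 fold changes of *Ccnd2* were 5.09 for MYC on over off and 2.77 for intermediate over off, more than 1.5 times the fold, and both still passed. Antisense genes overlap its exons over 372 bases (*Gm43126*) and 368 bases (*9330179D12Rik*), with 21 and 2 counts in all against 425 for *Ccnd2*.

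*Ccnd1* (ENSMUSG00000070348.5, mm10 chr7:144929931-144939925, minus strand) encodes cyclin D1, the D cyclin of most non-lymphoid tissues. It had 16, 9 and 15 counts with MYC on, 24, 20 and 25 at the intermediate dose and 23, 27 and 31 with MYC off, or 0.593 ± 0.169, 0.785 ± 0.0739 and 0.855 ± 0.238 CPM. The libraries of MYC on and off overlapped, and no comparison passed (MYC on over off, -0.47 ± 0.33, adjusted p = 0.218, edgeR). The pooled ratio of MYC on to off was 0.709 with an exact 95% counting interval of 0.473 to 1.05, so no difference was detected at this depth. *LTO1*, on the other strand, shares 1100 exon bases with *Ccnd1* and had 5297 counts against its 190, so the *Ccnd1* counts cannot be told apart from reads of *LTO1*.

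The D cyclin pool was therefore almost wholly *Ccnd3* at every MYC level. In TPM, *Ccnd3* made up 99.7% of the summed D cyclin level with MYC on, 99.9% at the intermediate dose and 99.97% with MYC off. The sum was 738 ± 30.1, 1722 ± 49.5 and 2305 ± 72.1 TPM. *Ccnd2* contributed 0.224 ± 0.0283% with MYC on and 0.00312 ± 0.00203% with MYC off. Groups did not overlap for the sum or for the shares of *Ccnd3* and *Ccnd2*. Every exact two-sided permutation test of these between groups gave 0.1, below which 3 against 3 libraries cannot go. For the share of *Ccnd1* the same test gave 0.5 between intermediate and off. Among the D cyclins *Ccnd2* exceeded *Ccnd1* in TPM with MYC on (1.65 against 0.424), and with MYC off *Ccnd1* exceeded *Ccnd2* (0.609 against 0.0728). This order rests on 14, 2 and 6 counts of *Ccnd2* with MYC off. It also rests on *Ccnd1* counts, in which the part of the bases shared with *LTO1* was not tested.

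**Figure D2:**
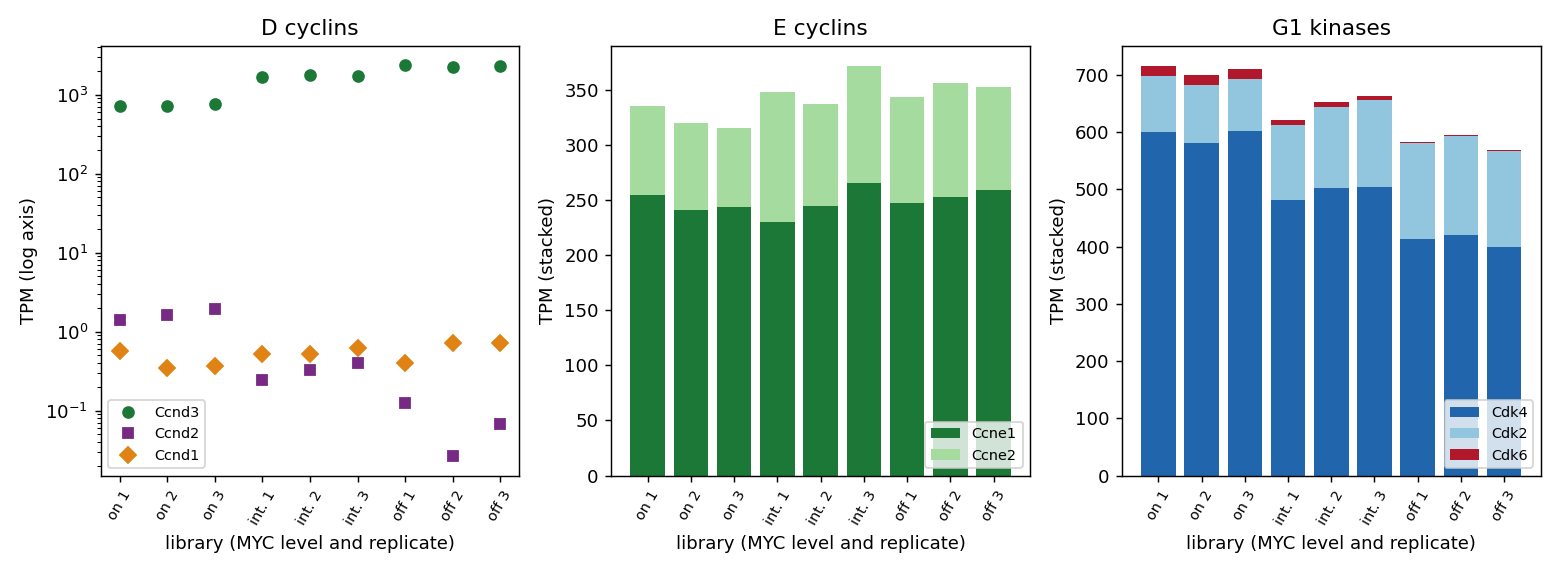
TPM of the D cyclins (points, log axis), the E cyclins and the G1 kinases (stacked bars from 0) in each of the 9 libraries, ordered by MYC level and replicate. *Ccnd3* lies at 714 TPM or above in every library and *Ccnd2* at 1.92 TPM or below. The kinase total averages 708 TPM with MYC on and 582 TPM with MYC off. In the latter there is less *Cdk4* (411 against 594 TPM) and *Cdk6* (2.41 against 17.4 TPM) and more *Cdk2*.

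Among the kinases, *Cdk6* (ENSMUSG00000040274.11, mm10 chr5:3341485-3531008, plus strand) changed most. CDK6 is a D cyclin partner known in lymphoid cells, but here its RNA was below that of *Cdk4* (17.4 against 594 TPM with MYC on). *Cdk6* had 69.4, 75.9 and 72.0 CPM with MYC on, 37.9, 37.4 and 29.8 CPM at the intermediate dose and 9.22, 10.5 and 10.5 CPM with MYC off. No groups overlapped, and each step down in MYC came with less *Cdk6* RNA. The level with MYC on was 7.39-fold that with MYC off (log2 fold change 2.88 ± 0.10, adjusted p = 1.39e-12, edgeR), a change larger than that of 98.2% of tested genes. The step from MYC on to intermediate was 2.05-fold (1.03 ± 0.09, adjusted p = 2.55e-07, edgeR) and that from intermediate to off 3.61-fold (1.85 ± 0.10, adjusted p = 1.48e-09, edgeR). An antisense gene, *Gm17590*, shares 368 exon bases with *Cdk6* and had 5.63, 2.24 and 0.672 CPM from MYC on to off, and its part in the *Cdk6* counts was not tested.

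*Cdk4* (ENSMUSG00000006728.12, mm10 chr10:127063534-127067920, plus strand) encodes the other kinase partner of the D cyclins. Its levels were 581, 557 and 583 CPM with MYC on, 482, 493 and 484 CPM at the intermediate dose and 407, 407 and 383 CPM with MYC off. The groups were separate, with small gaps and little spread. *Cdk4* was 1.47-fold higher with MYC on than off (0.56 ± 0.05, adjusted p = 1.79e-07, edgeR), with steps of 1.17-fold from on to intermediate (0.23 ± 0.05, adjusted p = 0.00230, edgeR) and 1.26-fold from intermediate to off (0.33 ± 0.05, adjusted p = 1.70e-04, edgeR). The first of these steps did not pass without MYC on replicate 1 (adjusted p = 0.0138) or replicate 3 (adjusted p = 0.0113, both edgeR). *Tspan31* overlaps 641 exon bases but had 646 counts against 121276 for *Cdk4*. By absolute change *Cdk4* ranked above 57.6% of tested genes.

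*Cdk2* (ENSMUSG00000025358.16, mm10 chr10:128697939-128705031, minus strand), the partner of the E cyclins, ran the other way. It had 183, 186 and 166 CPM with MYC on, 252, 264 and 278 CPM at the intermediate dose and 317, 318 and 306 CPM with MYC off. Groups did not overlap. *Cdk2* was 1.72-fold higher with MYC off than on (on over off, -0.78 ± 0.06, adjusted p = 8.64e-09, edgeR) and higher at the intermediate dose than with MYC on (-0.58 ± 0.06, adjusted p = 8.58e-07, edgeR). The last step, from intermediate to off, did not pass (-0.20 ± 0.06, adjusted p = 0.0115, edgeR), and this call depended on the scaling and filter. It passed with library size alone (adjusted p = 0.00301), upper quartile factors (0.00154), the filter of 1 CPM in 3 libraries (0.00831) and without MYC on replicate 3 (0.00965, all edgeR), and with DESeq2 (0.00689). *Pmel* shares 34 exon bases with *Cdk2* and had 4.35, 8.96 and 16.9 CPM.

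Within the kinase pool, *Cdk4* held the largest share in TPM at every MYC level, with 83.9 ± 0.987% with MYC on, 76.9 ± 0.706% at the intermediate dose and 70.6 ± 0.298% with MYC off. The *Cdk2* share was 13.6 ± 0.904%, 21.9 ± 0.879% and 29.0 ± 0.266% in the same order, and the *Cdk6* share 2.46 ± 0.152%, 1.29 ± 0.173% and 0.414 ± 0.0376%. Each share was separate between all pairs of groups (exact two-sided permutation p = 0.1, the smallest possible with n = 3). The 3 kinases summed to 708 ± 7.33, 646 ± 21.1 and 582 ± 12.8 TPM.

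The E cyclins differed little between MYC levels. *Ccne1* (ENSMUSG00000002068.16, mm10 chr7:38097984-38107534, minus strand), cyclin E1, had 202, 189 and 193 CPM with MYC on, 188, 197 and 209 CPM at the intermediate dose and 200, 200 and 203 CPM with MYC off. All groups overlapped, and the log2 fold change of MYC on over off was -0.01 ± 0.05 (adjusted p = 0.860, edgeR). *Ccne2* (ENSMUSG00000028212.16, mm10 chr4:11191351-11204779, plus strand), cyclin E2, had 84.4, 81.2 and 74.4 CPM with MYC on, 127, 97.7 and 109 CPM at the intermediate dose and 102, 107 and 96.8 CPM with MYC off. The MYC on libraries lay below all others, and the other two groups overlapped. *Ccne2* was 1.25-fold higher with MYC off than on (on over off, -0.32 ± 0.09, adjusted p = 0.00483, edgeR) and 1.40-fold higher at the intermediate dose than with MYC on (-0.49 ± 0.09, adjusted p = 3.18e-04, edgeR), and the intermediate and off groups did not differ at the threshold (0.17 ± 0.09, adjusted p = 0.147, edgeR). The comparison of MYC on with MYC off did not pass without MYC on replicate 2 (adjusted p = 0.0164) or replicate 3 (0.0299) or without MYC off replicate 1 (0.0165) or replicate 2 (0.0234, all edgeR). *Ints8* overlaps *Ccne2* over 609 exon bases and had 133, 148 and 137 CPM.

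In TPM, *Ccne1* supplied 76.2 ± 0.998% of the E cyclin sum with MYC on, 70.1 ± 3.48% at the intermediate dose and 72.1 ± 1.19% with MYC off. The sum was 323 ± 10.6, 352 ± 17.3 and 351 ± 6.38 TPM. MYC on did not overlap either other group in both measures (exact two-sided permutation p = 0.1 each, the smallest possible with n = 3). The intermediate and off groups overlapped in both measures (exact two-sided permutation p = 0.5 for the share and 0.9 for the sum, n = 3).

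*Cdc25a* (ENSMUSG00000032477.13, mm10 chr9:109875579-109893895, plus strand) encodes the phosphatase that activates CDK2. It had 165, 157 and 154 CPM with MYC on, 182, 167 and 167 CPM at the intermediate dose and 157, 156 and 162 CPM with MYC off. The intermediate libraries lay above the others by a narrow gap, and MYC on and off overlapped. No comparison passed (edgeR): MYC on over off was 0.04 ± 0.06 (adjusted p = 0.610), on over intermediate -0.13 ± 0.06 (adjusted p = 0.0880) and intermediate over off 0.16 ± 0.06 (adjusted p = 0.0379).

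Ordered by TPM, the 9 genes kept the same sequence at every MYC level but for the scarcest pair: *Ccnd3*, *Cdk4*, *Ccne1*, *Cdk2*, *Ccne2*, *Cdc25a*, *Cdk6*, then *Ccnd2* and *Ccnd1*. With MYC on the means in that order were 736, 594, 246, 96.7, 77.0, 66.7, 17.4, 1.65 and 0.424 TPM. With MYC off they were 2304, 411, 253, 169, 97.8, 66.2, 2.41, 0.0728 and 0.609 TPM. Neighbours in the order did not overlap between libraries of a group, but the order of *Ccnd1* and *Ccnd2* rests on few counts and on the overlap with *LTO1*. *Ccnd3* exceeded *Cdk4* by little with MYC on (714 to 770 against 581 to 603 TPM) and widely with MYC off (2221 to 2353 against 400 to 420 TPM).

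**Figure D3:**
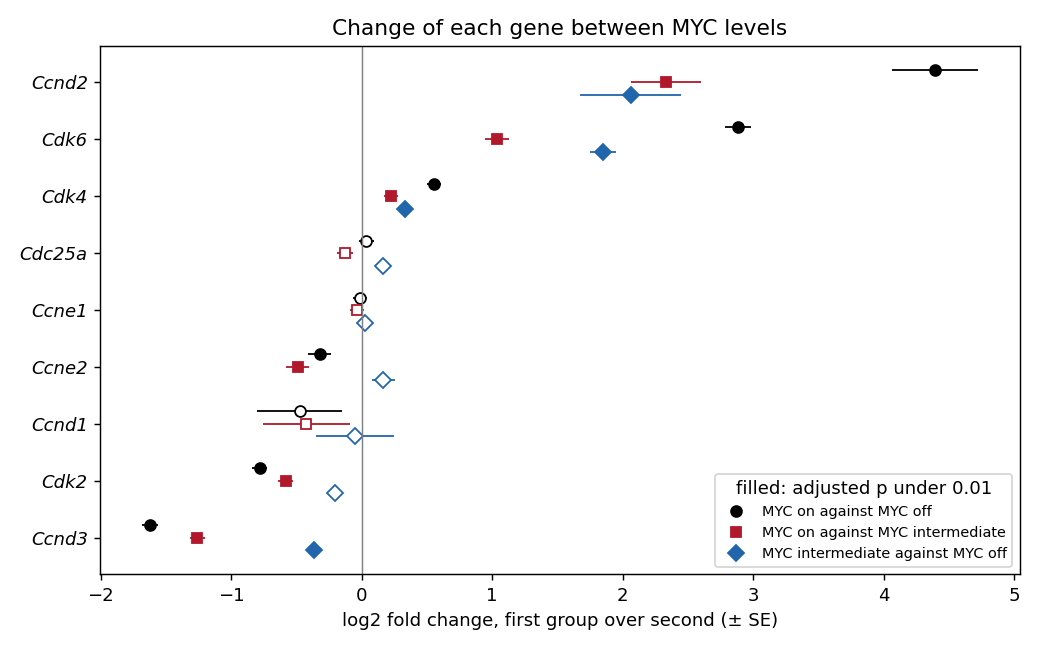
Log2 fold change of each of the 9 genes (horizontal axis, first group over second, bars are SE) in the 3 comparisons of MYC levels. *Ccnd2* (4.39) and *Cdk6* (2.88) lie farthest to the right for MYC on against off and *Ccnd3* (-1.62) farthest to the left. Filled symbols passed at an adjusted p under 0.01.

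To ask how the genes behaved at an intermediate MYC level, the intermediate libraries were compared with either end. From MYC on to intermediate, 6 of the 9 genes passed, *Ccnd2*, *Cdk4* and *Cdk6* as higher and *Ccnd3*, *Ccne2* and *Cdk2* as lower with MYC on, where 34.6% of all genes passed (17.2% higher and 17.4% lower). The libraries of these 6 genes and of *Cdc25a*, 7 in all, did not overlap, against 53.5% of all genes. From intermediate to off 4 of the 9 passed, with *Ccnd2*, *Cdk4* and *Cdk6* higher and *Ccnd3* lower in the intermediate group, where 24.7% of all genes passed (14.7% higher and 9.95% lower), and 6 of the 9 did not overlap, against 47.6% of all genes. These comparisons share their libraries and are not independent. The median absolute log2 fold change was 0.49 for the 9 genes and 0.29 for all genes in the first step, and 0.20 and 0.23 in the second. The split of all genes that passed in the second step depended on the scaling, 59.6% of them being higher in the intermediate group with TMM (trimmed mean of M values) factors, 50.7% with library size alone and 45.4% with upper quartile factors.

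The place of the intermediate group on the way from MYC on (0) to MYC off (1), on the log2 scale, differed among the 6 genes. It was 0.36 for *Cdk6*, 0.41 for *Cdk4*, 0.53 for *Ccnd2*, 0.74 for *Cdk2*, 0.78 for *Ccnd3* and 1.52 for *Ccne2*. The transgene itself stood at 0.19, and the median over 2746 genes that passed with an absolute log2 fold change above 1 was 0.56. The 3 genes that were higher with MYC on lay below this median and the 3 that were lower lay above it. *Ccnd2* lay close to the median and did not differ from the midpoint (-0.13 ± 0.31, adjusted p = 0.855, edgeR). *Cdk4*, *Cdk2* and *Ccne2* had absolute changes below 1 and so are unlike the genes behind the median. *Ccne2* lay past its MYC off level, but its intermediate and off groups did not differ at the threshold. Tested against the midpoint of MYC on and off, the intermediate level was above it for 2 of the 9 genes and below it for 0, where 1.89% of all genes passed, 1.7% above and 0.184% below: *Ccnd3* by 0.45 ± 0.05 (adjusted p = 8.27e-05, edgeR) and *Cdk6* by 0.41 ± 0.08 (adjusted p = 0.00816, edgeR). The *Cdk6* result did not pass with library size alone (adjusted p = 0.0157), upper quartile factors (0.0169) or thinned counts (0.0133), nor without any 1 library other than MYC intermediate replicate 3 (all edgeR). *Ccne2* missed the threshold (0.33 ± 0.07, adjusted p = 0.0190, edgeR). It passed with the replicate number as a block (adjusted p = 0.00455), with no count filter (1.09e-05, both edgeR) and with DESeq2 (0.00309).

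**Figure D4:**
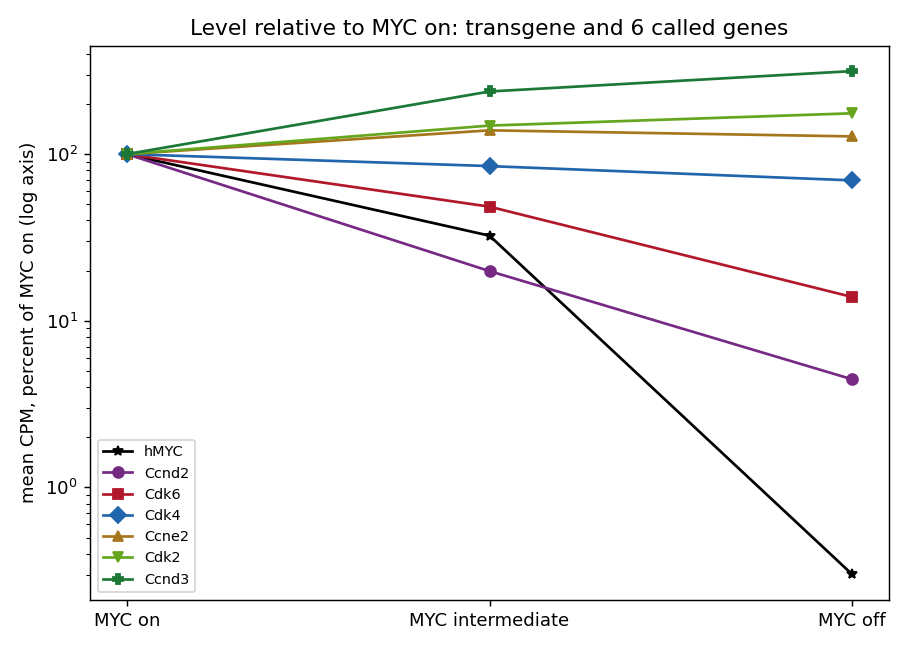
Mean CPM of the MYC transgene (hMYC) and of the 6 genes that passed between MYC on and off, as a percent of the MYC on mean (vertical log axis), at the 3 MYC levels. At the intermediate dose hMYC stood at 32.4%, *Cdk6* at 48.4%, *Ccnd2* at 19.9%, *Cdk4* at 84.8%, *Cdk2* at 148%, *Ccne2* at 139% and *Ccnd3* at 238%.

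The genes that regulate these cyclins and kinases were described by list, between MYC on and off. Of 7 CDK inhibitors, 6 were tested and 4 passed, all lower with MYC on, where 27.5% of all genes were lower and 27.4% higher. These were the INK4 genes *Cdkn2d* (p19; 70.0, 187 and 297 CPM from MYC on to off) and *Cdkn2c* (p18; 82.9, 186 and 260 CPM), which block CDK4 and CDK6, and the CIP/KIP genes *Cdkn1a* (p21; 6.37, 11.5 and 17.1 CPM) and *Cdkn1b* (p27; 2.62, 3.20 and 5.02 CPM). Their log2 fold changes were -2.05 ± 0.06, -1.62 ± 0.05, -1.38 ± 0.12 and -0.92 ± 0.19. *Cdkn2a* had 14.8, 11.4 and 10.6 CPM and *Cdkn2b* 1.09, 1.26 and 1.90 CPM, neither of which passed, and *Cdkn1c* was below the count filter. *Cdkn2a* ran the other way and missed the threshold narrowly (0.50 ± 0.16, adjusted p = 0.0119, edgeR). With DESeq2, and with the replicate number as a block, 5 genes of the list passed, 1 of them as higher with MYC on. *Cdkn2c* and *Cdkn2d* were thus lowest in the libraries where *Cdk4* and *Cdk6* were highest. The median over the list was -1.15, against -0.03 over all genes.

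Of 13 pocket protein and E2F genes, 4 were higher and 6 lower with MYC on (median -0.10), where 54.9% of all genes passed. The pocket proteins hold E2F factors in check, and all 3 passed as lower, *Rb1* with -0.87 ± 0.06, *Rbl1* with -0.41 ± 0.06 and *Rbl2* with -1.34 ± 0.05. Among E2F genes *E2f2* (-1.40 ± 0.05) and the repressive *E2f7* (-1.11 ± 0.08) and *E2f8* (-1.24 ± 0.05) were lower. *E2f3* (0.40 ± 0.09), *E2f5* (0.89 ± 0.16), *E2f6* (0.81 ± 0.07) and the E2F partner *Tfdp1* (0.52 ± 0.05) were higher. *E2f1* had 138, 146 and 136 CPM and did not pass, nor did *E2f4* or *Tfdp2*. Of 27 E2F targets of S phase entry other than the 3 members that belong to that list, 7 were higher, 8 lower and 12 did not pass (median 0.01). From MYC on to intermediate 14 of them were lower with MYC on and 0 higher (17.4% and 17.2% of all genes), and from intermediate to off 11 were higher in the intermediate group and 0 lower (14.7% and 9.95% of all genes). Ribonucleotide reductase *Rrm2* was the largest, at 1341, 2606 and 3116 CPM (-1.18 ± 0.06 for MYC on over off).

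Genes that activate, restrain or degrade the cyclins and kinases were found in both directions, and the same background of 27.4% higher and 27.5% lower applies to each list. Of 3 genes of the CDK-activating kinase 2 were higher with MYC on, *Cdk7* (0.57 ± 0.08) and its cyclin *Ccnh* (0.45 ± 0.08). Among 9 genes for inhibitory phosphorylation and its removal 1 was higher, the checkpoint kinase *Chek1* (0.60 ± 0.08), and 4 lower, including the CDK1 inhibitory kinase *Pkmyt1* (-0.90 ± 0.08) and the phosphatases *Cdc25b* (-0.86 ± 0.06) and *Cdc25c* (-0.46 ± 0.07), the relatives of *Cdc25a*. Of 13 turnover genes for G1 cyclins and p27, 7 were higher and 4 lower (median 0.30), with *Cul3*, a ubiquitin ligase scaffold that acts on cyclin E, at 1.07 ± 0.15 and *Usp2*, a deubiquitinase that acts on cyclin D1, at -0.86 ± 0.09. Of the A and B cyclins with *Cdk1*, 6 of 7 were tested and 4 were lower with MYC on (median -0.45), led by *Ccnb2* (-0.89 ± 0.06) and *Ccnf* (-0.69 ± 0.06). Of 24 other cyclins and CDKs tested of 28, 5 were higher and 7 lower (median -0.06), with *Ccng2* at -1.47 ± 0.06. In bulk RNA, fewer cells in a phase of the cycle and less RNA per cell cannot be told apart.

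Of 13 factors known to act on D cyclin transcription in lymphocytes, 9 were lower with MYC on and 1 higher (median -0.47), against 27.5% and 27.4% of all genes. The repressor *Bcl6* (-1.86 ± 0.08), *Foxo1* (-1.32 ± 0.07), *Notch1* (-0.95 ± 0.25) and *Lef1* (-0.69 ± 0.06) were lower with MYC on, as *Ccnd3* was. *Stat5a* was higher (272, 216 and 194 CPM from MYC on to off). Its more abundant relative *Stat5b* was lower (-0.38 ± 0.05), at 688, 807 and 914 CPM. *Foxo1* had 39.4, 70.3 and 101 CPM and *Bcl6* 19.1, 47.2 and 71.2 CPM from MYC on to off. Whether any of these acts on the D cyclins in these cells was not tested.

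**Figure D5:**
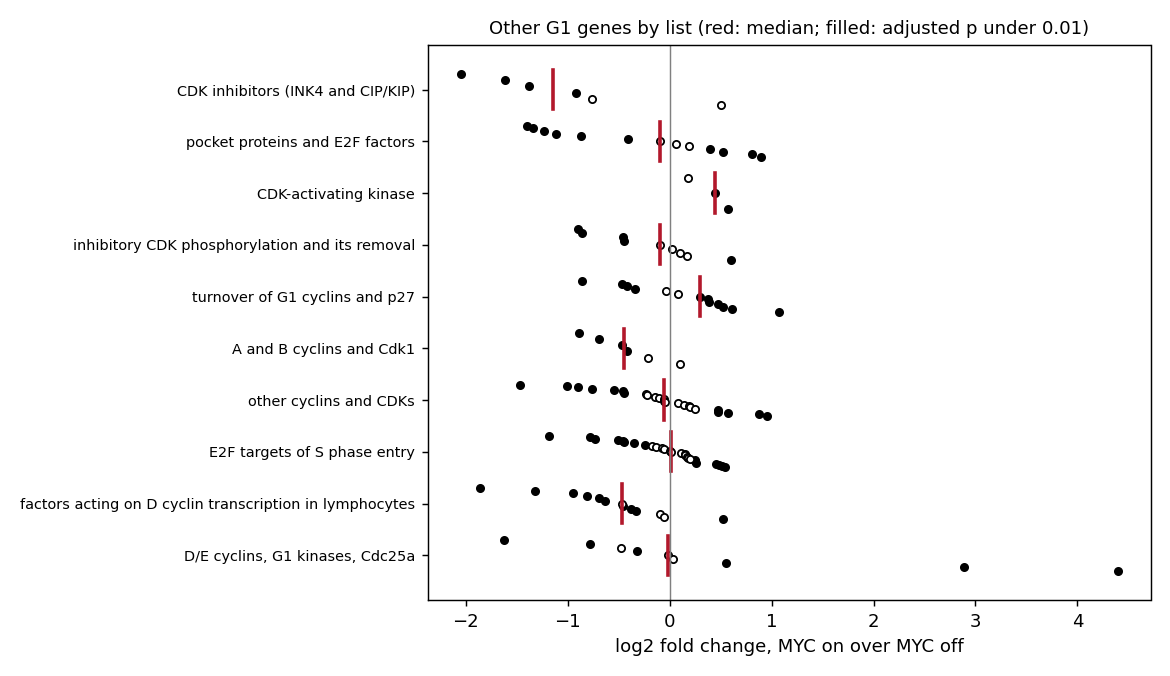
Log2 fold change of MYC on over MYC off (horizontal axis) for each tested gene of 9 lists of regulators and, in the last row, for the 9 genes themselves. Filled points passed at an adjusted p under 0.01 and red bars are list medians. The CDK inhibitors have the lowest median (-1.15), and *Ccnd2* and *Cdk6* lie beyond every regulator on the right.

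Over the 9 libraries, the profiles most like that of each gene were described by Pearson's r of log2 CPM over 8126 genes with a mean of at least 10 CPM. *Ccnd3* was nearest to *Cd6* (r = 0.999), a T cell surface receptor at 37.1, 307 and 612 CPM from MYC on to off, then to *Lgals9* and *Abhd8*. *Cdk6* was nearest to *Ybx3* (r = 0.997; 254, 80.4 and 14.7 CPM), then *Sdad1* and *Wdr77*. *Cdk4* was nearest to *Mrps5* (r = 0.998), a mitochondrial ribosomal protein gene, then *Ndufa10* and *Eif3g*, and *Cdk2* to *Prx* (r = 0.998), *Ndc80* and *Fbxo5*. For the genes with little change the nearest were *Fbxo7* for *Ccne1* (r = 0.912), *Sh2d1a* for *Ccne2* (r = 0.963) and *Dpp4* for *Cdc25a* (r = 0.963). These values follow the 3 group means and n = 9 libraries that share them, and are a description only.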

How the data were processed

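RNA of murine T-ALL cells (9 libraries, 3 per MYC level) was measured by RNA-seq of oligo(dT)-primed SMART-Seq v4 cDNA with Nextera XT libraries, which do not mark strand. The deposited tables give whole-number counts per gene, gene length, and FPKM and TPM that the authors computed. They also give reads per kilobase, a score computed by the authors, and a fraction of the total, which the authors deposited and which was not used here. Reads had been trimmed, aligned to mm10 and counted, and the tools listed by the submitters are cutadapt 1.16, STAR 2.5.4b and featureCounts. The annotation release and strand setting are not given in the sources used here. Symbols and coordinates came from GENCODE M21, matched for 53274 of 53380 identifiers; for the 9 genes the deposited length equals the M21 exon length.

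CPM is counts over the library total. Counts of 14098 genes kept by filterByExpr were fitted with edgeR 4.0.16 (TMM, quasi-likelihood F test, all 9 libraries, group as the only term, two-sided, Benjamini-Hochberg, adjusted p under 0.01). SE is the log2 fold change over the root of F. Shares used exact permutation tests. DESeq2 1.42.0, other normalizations and filters, thinning, a replicate block and leaving out libraries were alternatives. The fit was tested on simulated data. A floor of 3 counts is 0.0756 to 0.160 CPM. Intervals cover counting error only. Libraries of the same replicate number were compared by the correlation of deviations from group means over 9946 genes. Between MYC on and off r was 0.376, 0.253 and 0.220. It was -0.180 to 0.132 between on and intermediate, and 0.0347 to 0.371 between intermediate and off. Same-numbered libraries of MYC on and off thus shared part of their deviation. Correlations between libraries of different numbers were not computed, and the labels do not pair samples, so pairing was not established.

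The 9 genes, the lists and the tests were chosen with earlier results of these data known. Named besides the 9 genes were up to 4 genes per list that passed with the largest change and at least 5 CPM in 1 group, any CDK inhibitor, pocket protein or E2F gene, and the 3 most similar profiles per gene with at least 10 CPM. *Stat5a*, *Stat5b* and *Bysl* were named after their values were seen.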

Additional observations from a re-analysis of the deposited data

How the results depend on the processing

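Of 635 alternative values for the log2 fold changes of the 9 genes, 594 kept their direction and side of the threshold, 17 no longer passed, 8 newly passed and 16 changed sign. The sign changes were all in values that passed neither in the main comparison nor in the alternative. For MYC on over off they were *Ccne1* at 0.00039 with RLE size factors, 0.0093 with only the 6 libraries compared and 0.0021 with thinned counts, and -0.043 to 0.021 when 1 library was left out, and *Cdc25a* at -0.031 with upper quartile factors. For intermediate over off they were *Ccne1* at -0.022 with library size alone and -0.045 with upper quartile factors, and -0.011 to 0.051 when 1 library was left out, and *Ccnd1* at 0.083 with thinned counts and -0.26 to 0.078 when 1 library was left out. Against the midpoint they were *Ccne1* at -0.0056 with upper quartile factors and, leaving out 1 library, -0.0046 to 0.057 for *Ccne1* and -0.30 to 0.23 for *Ccnd2*. The changed calls came from *Ccne2* and *Cdk4* without single libraries, *Cdk2* from intermediate to off, and *Cdk6* and *Ccne2* against the midpoint. All 162 list counts stayed within 1.5 times. The count of genes above the midpoint moved from 2 to 1 with library size alone, thinned counts and upper quartile factors. *Ccne2* raised it with DESeq2, with the replicate number as a block and with no count filter. When 1 library was left out, this count ranged from 1 to 2. The other counts then ranged from 5 to 6 (MYC on against off), 5 to 6 (on against intermediate) and 4 to 5 (intermediate against off). Over all genes, 6880 to 8049, 4032 to 4998 and 2491 to 3369 passed without 1 library. Shares from counts without length scaling moved, to 99.96% (intermediate) and 99.98% (off) for *Ccnd3*, 69.6%, 61.9% and 55.2% for *Cdk4* and 8.79%, 4.46% and 1.39% for *Cdk6* from MYC on to off; the kinases differ in length. With the replicate number as a block, the counts for the 9 genes were 6, 6 and 4 in the 3 comparisons of groups, and the only call that changed was *Ccne2* against the midpoint (log2 0.32). *Ccnd1* was not tested under the filter of 1 CPM in 3 libraries. Depth limits *Ccnd1* and *Ccnd2*, which have 190 and 425 counts in all.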
